A study of Rattus norvegicus with 9 samples.

Results

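The control transcriptome of retinal microglia was read from 5 libraries of cells sorted from the retinas of Dark Agouti rats, an inbred laboratory strain. These were all 5 citrate-buffer libraries among the 9 of the series, chosen by their treatment label and named control 1, 3, 4, 5 and 6 as their titles number them. The rats were injected with buffer at 8 to 10 weeks of age after 12 hours of fasting, had normal blood glucose by their label, and were taken 4 weeks later. Retinas were digested with papain, cells carrying the surface protein CD11b were sorted by flow cytometry, and their RNA was preamplified with a SmartSeq v4 kit before Nextera XT libraries were made. The 4 diabetic libraries were not compared here. CD11b, the product of Itgam, is carried by microglia and also by other myeloid cells, so the gate alone does not separate them. The labels state 5 controls without animal identifiers, and the SD given below is the spread between these libraries.

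Microglia are the resident macrophages of the retina and brain. They derive from the yolk sac and depend on signalling through the receptor Csf1r and on the transcription factors Spi1 and Irf8. They survey the tissue with motile processes guided by receptors such as P2ry12 and Cx3cr1, engulf cell debris and digest it in lysosomes, and secrete complement and cytokines when disturbed.

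The 5 libraries held between 9156591 and 11332823 counts, 50062982 in all, and 14645 to 15069 genes had a count in each. Levels are given as counts per 1000000 counts of the library (CPM), scaled between libraries with TMM factors, where a gene is compared with itself across libraries. Levels of different genes are compared as transcripts per 1000000 (TPM), in which counts are divided by transcript length. Ranks by CPM and shares of counts are named as such and are not per length. A length was at hand for 4926 of the 10519 genes at 1 CPM or more in every library, so Ctss, Psap and other abundant genes have no TPM. Controls 4 and 6 stood apart from the other libraries, and results that rest on them are given with and without them. In a principal component analysis of the 500 most variable genes, component 1 carried 82.2% of the variance, with scores of 21.9 and 31.3 for controls 4 and 6 against -8.06, -20.2 and -25.0 for controls 5, 1 and 3. The distance between controls 4 and 6 was 16.6 and that between controls 1 and 3 was 21.5, whereas control 3 and control 6 were 57.7 apart. By their labels the 5 were run in 1 lane of 1 flow cell, which concerns sequencing only. The part of sorting, preamplification or library preparation in this separation was not tested.

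A small number of genes held much of the counts. The cystatin gene Cst3, a secreted inhibitor of cysteine proteases, took the most counts in every library, 3.49% to 4.17%. The 10 genes with the most counts together took 13.7% ± 0.417 (SD, n = 5), the first 100 took 32.4% ± 1.17, and the first 1000 took 64.0% ± 1.84. Between 336 and 458 genes made up 50% of a library, and control 6 needed the fewest. Actb, the cytoskeletal beta actin, came second by mean CPM and by mean TPM, with 16915 to 24112 CPM and 37751 TPM. Ppp1r10, a phosphatase regulator, ranked 4 by TPM only through a reference transcript of 29 bases, so its TPM is not read further. By mean level, 6 genes lay above 10000 CPM, 110 above 1000 CPM, 1861 above 100 CPM and 7945 above 10 CPM.

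**Figure D1:**
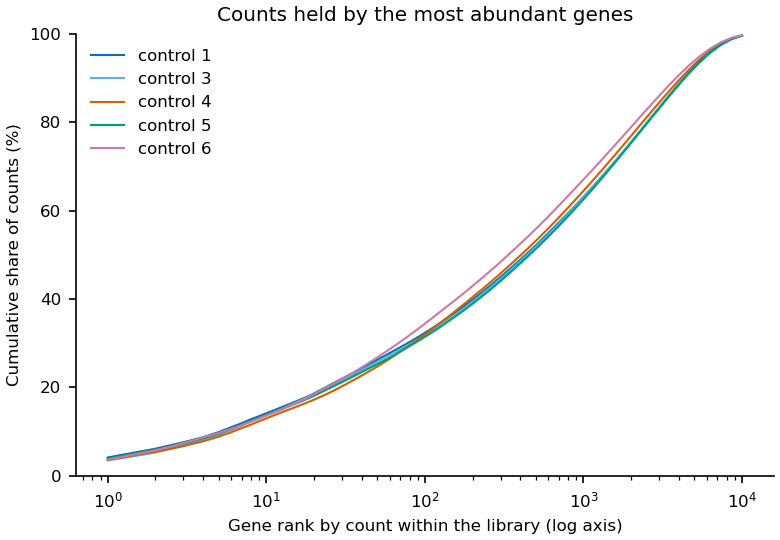
Cumulative share of counts (percent, vertical axis) held by the most abundant genes of each of the 5 control libraries, against gene rank on a log axis. At rank 100 the 5 lines lie between 31.4% and 34.4%, and control 6 is the highest.

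The 6 markers of the cell type were abundant in every library and together took 5.79% ± 0.509 of the counts (SD, n = 5, range 5.26% to 6.43%). Cst3 stood at 39251, 33028, 37806, 37203 and 41992 CPM in controls 1, 3, 4, 5 and 6, with a mean of 37856 ± 3271. It lies on chromosome 3 of the rat build Rnor_6.0, where its reference transcript spans 143219686 to 143223615 on the minus strand. Csf1r, the receptor for colony stimulating factor 1 and interleukin 34, gave 10744, 10136, 10381, 11714 and 10565 CPM in the same order. Its reference transcript spans 56431820 to 56457869 of chromosome 18. Neither gene varied by more than 1.28-fold between libraries.

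Tmem119, a membrane protein used to tell microglia from other macrophages, was measured at 3891, 3183, 2107, 3035 and 1873 CPM in controls 1, 3, 4, 5 and 6, the lowest values being those of controls 4 and 6. It spans 48598647 to 48605704 of chromosome 12 on Rnor_6.0. P2ry12, the receptor for ADP released by injured cells, showed the same order at the low end, with 1856, 1750, 1413, 1615 and 1306 CPM, from chromosome 2 between 149441598 and 149444548. The fractalkine receptor Cx3cr1, on chromosome 8 between 128740756 and 128754514, gave 2402, 2213, 1873, 2456 and 1593 CPM. Mpeg1, which encodes the pore-forming protein perforin-2, gave 2314, 2637, 2900, 2989 and 2639 CPM and did not order the libraries in that way. It spans 228724900 to 228727160 of chromosome 1. The means of Tmem119 and Cx3cr1 were 2818 ± 826 and 2107 ± 367 CPM over 5 libraries, and 3370 and 2357 CPM without controls 4 and 6.

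Of the 36 microglia identity genes in the count table, 34 had at least 1 CPM in every library and 31 had a mean above 100 CPM. The list took 11.8%, 10.9%, 9.99%, 11.3% and 9.65% of the counts in controls 1, 3, 4, 5 and 6. The median ratio of highest to lowest library over its detected members was 1.34, beside 1.49 over all 10519 detected genes. A ratio of 2 was reached by 2 members, which is 5.88% of the 34, beside 19.4% of all detected genes. By TPM its leading members were Cst3 with 118204, C1qb with 9109, Csf1r with 8242, C1qa with 7973 and Laptm5, a lysosomal membrane protein, with 4099. Siglech had 0 counts in all 5 libraries.

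The 6 cell type markers differed widely from one another in level. On the TPM scale the order by mean was Cst3 at 118204 ± 9049, Csf1r at 8242 ± 1101, Cx3cr1 at 3969 ± 1032, Tmem119 at 3268 ± 1188, P2ry12 at 3152 ± 719 and Mpeg1 at 2937 ± 424. Cst3 was above Csf1r in every library. The last 4 lay within the SD of their neighbours in this order.

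Among the factors that set the lineage, Irf8, an interferon regulatory factor needed by macrophages, led with 1027 ± 329 TPM. Its CPM was 805, 851, 1670, 907 and 1921 in controls 1, 3, 4, 5 and 6, so that controls 4 and 6 were the highest, with a mean of 1231 over 5 libraries and 855 without those 2. Spi1, which encodes PU.1, gave 264, 221, 340, 259 and 425 CPM, again highest in controls 4 and 6. Sall1, a zinc finger factor that marks microglia among macrophages, gave 462, 440, 386, 385 and 345 CPM and was lowest in control 6. On the TPM scale Spi1 stood at 368 ± 57.9 and Sall1 at 192 ± 37.7. Of the 30 listed factors 28 were detected in every library, and their share of the counts was 0.494% ± 0.0740.

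Genes of the endolysosomal system, which breaks down engulfed material, held a large share of the counts. Cathepsins and their cystatin inhibitors took 7.68% ± 0.468 of the counts (SD, n = 5), and Cst3, which is secreted and also stands in the identity list, made up 49.3% of that. The cathepsin family alone took 3.51% ± 0.302. Ctss, an elastin- and collagen-cutting protease of myeloid cells, was the third gene by mean CPM, which is not per length, with 13729, 13447, 13368, 12895 and 14972 in controls 1, 3, 4, 5 and 6. Among cathepsins with a length, Ctsb led in all 5 libraries with 11243 ± 1930 TPM, before Ctsz with 4140 ± 347 and Ctsh with 3452 ± 550. Lgmn, the asparaginyl endopeptidase legumain, stood at 4683 ± 783 TPM and the aspartic protease Ctsd at 3123 ± 433 TPM. Of the 21 listed proteases and inhibitors with a row, 15 were detected in all libraries, and Ctsg, Cst6, Csta and Serpinf1 had 0 counts.

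Lysosomal hydrolases and membrane proteins took a further 3.92% ± 0.362 of the counts, with 42 of 43 detected in every library. Psap, the precursor of the saposins that present lipids to lysosomal enzymes, supplied 26.7% of that share, with 9822 to 11291 CPM. Grn, whose product progranulin is cleaved in lysosomes, had 5048 ± 744 TPM, Npc2, a cholesterol carrier, 2897 ± 168, and the membrane proteins Lamp2 and Lamp1 2700 ± 212 and 1714 ± 276. Subunits of the V-ATPase, which acidifies the lysosome, took 0.432% of the counts, led in every library by Atp6ap1 with 1522 ± 213 TPM.

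Complement genes took 2.37% ± 0.152 of the counts, a share that ranged only from 2.22% to 2.60%. The 3 chains of C1q, the initiator of the classical pathway, were the leading members by TPM, with C1qb at 9109 ± 1400, C1qa at 7973 ± 1025 and C1qc at 3888 ± 579. C3, the central component of the cascade, gave 5609, 5469, 6685, 7179 and 7373 CPM in controls 1, 3, 4, 5 and 6 and 3049 ± 374 TPM. Of the 31 listed complement genes with a row, 20 were detected in all libraries, and C8a, Cfb, Cfi and Cr2 had 0 counts.

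Genes that handle lipid were led by Apoe, the main lipid carrier of the central nervous system, which had 23077 ± 5409 TPM. Its CPM was 10356, 14360, 10900, 9716 and 9834 in controls 1, 3, 4, 5 and 6, so control 3 was the highest. Pltp, a phospholipid transfer protein, followed with 1391 ± 211 TPM and Lpcat2, an enzyme of platelet-activating factor synthesis, with 768 ± 125. Hmox1, heme oxygenase, differed more between libraries, with 175, 190, 722, 222 and 487 CPM and the highest values in controls 4 and 6. Sparc, a secreted protein that binds collagen, was among the steadiest of the abundant genes, at 8058 to 8526 CPM and 10004 ± 1090 TPM.

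Receptors that sense debris, antibody and danger took smaller shares. Fc, TREM and inhibitory receptors took 1.07% ± 0.107 of the counts with 30 of 32 detected in every library, and Toll-like receptors with their adaptors took 0.645% ± 0.126 with 31 of 35 detected. Among Fc and TREM genes with a length, the shared signalling chains led, Fcer1g with 2990 ± 298 TPM and Tyrobp with 2527 ± 178 TPM. By counts, which are not per length, Sirpa held the most of that list, 17.7%. Among Fc gamma receptors the inhibitory Fcgr2b exceeded Fcgr3a 3.40-fold to 4.08-fold by TPM in every library. Among Toll-like receptors with a length Tlr2, the receptor for lipoproteins, led in all 5 libraries with 765 ± 223 TPM, before the RNA sensors Tlr7 with 267 ± 27.6 and Tlr3 with 229 ± 42.4. Tlr2 gave 578, 617, 1110, 586 and 1266 CPM in controls 1, 3, 4, 5 and 6, and was again highest in controls 4 and 6.

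Several gene families were each dominated by 1 member. Over 42 families searched by symbol, 37 had at least 2 detected members with a length, and in 29 of the 37 the same member ranked first by TPM in all 5 libraries. P2ry12 exceeded P2ry13 4.69-fold to 6.29-fold among the ADP and nucleotide receptors. The fructose carrier Slc2a5 exceeded Slc2a8 6.60-fold to 7.32-fold among the facilitative sugar transporters, and the widely expressed glucose carrier Slc2a1 stood at 64.6 ± 19.0 TPM. Among the CC chemokine receptors Ccr2, the receptor of inflammatory monocytes, had 0 counts. Annexin Anxa3 exceeded Anxa6 34.3-fold to 51.3-fold, and the metalloproteinase inhibitor Timp2 exceeded Timp1 31.3-fold to 95.1-fold. The kinase Lyn led the Src family in all 5 libraries with 787 ± 47.0 TPM, and the engulfment receptor Mertk exceeded its relative Axl 1.61-fold to 3.02-fold. These orders hold among members with a length.

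**Figure D2:**
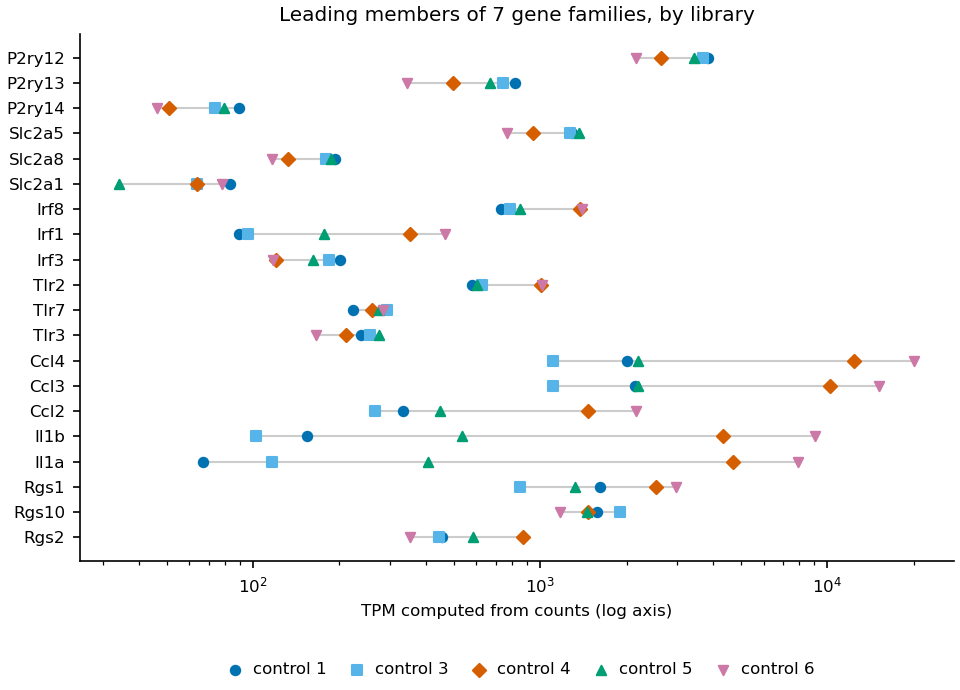
TPM (log axis) of leading members of 7 gene families, 1 point per control library, with a grey line from the lowest to the highest. P2ry12, Slc2a5, Irf8 and Tlr2 lie above their relatives in every library, whereas the points of Il1b and Il1a and of Ccl4 and Ccl3 overlap.

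Other families had no settled first member. Il1b and Il1a, the agonists of the interleukin 1 receptor, had a ratio of 0.882 to 2.30 and Il1b was the higher in 3 of 5 libraries. Ccl4 and Ccl3, chemokines that attract leukocytes, had a ratio of 0.931 to 1.33, and the regulators of G protein signalling Rgs1 and Rgs10 a ratio of 0.447 to 2.53. The order also depended on length, since by mean CPM Tlr13 was the highest Toll-like receptor, Ctss the highest cathepsin and Itgb2 the highest integrin beta subunit. None of these had a TPM. Ctss and Itgb2 were first by CPM in all 5 libraries, whereas Tlr13 was not, and its ratio of highest to lowest library was 10.7.

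Cytokine and growth factor genes differed between libraries more than the sets above. Their summed share was 0.422%, 0.361%, 1.395%, 0.450% and 2.23% of the counts in controls 1, 3, 4, 5 and 6, so that controls 4 and 6 were the highest, and the mean of 0.973% was 0.411% without them. Ccl4 gave 487, 266, 3324, 519 and 6093 CPM. Ccl3, its close relative, gave 627, 319, 3300, 622 and 5516 CPM. Ccl2, the ligand of Ccr2, gave 108, 84.0, 521, 140 and 865 CPM, and by TPM these chemokines followed the order Ccl4, Ccl3, Ccl2 on their means. Transforming growth factor Tgfb1 was steadier at 111 to 204 CPM. Of the 38 detected members 16 had a ratio of highest to lowest library of at least 4, which is 42.1% of them, beside 3.21% of all detected genes.

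Il1b, the secreted interleukin 1 beta, gave 83.1, 54.4, 2571, 279 and 6102 CPM in controls 1, 3, 4, 5 and 6. Il1a, which encodes interleukin 1 alpha and lies next to it on chromosome 3 (121825835 to 121835360, against 121876263 to 121882726 for Il1b), gave 20.9, 35.7, 1622, 124 and 3075 CPM. Both were highest in control 6, then control 4, then control 5. The mean of Il1b was 1818 CPM over 5 libraries and 139 CPM without controls 4 and 6, and that of Il1a was 975 and 60.1 CPM.

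Tumour necrosis factor, Tnf, could not be read from the count table. It had 2, 41, 4, 2 and 0 counts in controls 1, 3, 4, 5 and 6, yet the deposited assemblies of the same libraries list its reference transcripts at a summed 60.9, 19.99, 555, 77.0 and 197 TPM. The annotation in those files places 2 genes of this name on chromosome 20 of Rnor_6.0, from 4855829 to 4858447 on the plus strand and from 5189390 to 5192000 on the minus strand. Both were listed in controls 1, 4, 5 and 6, and in control 3, the library with the most counts, only the former was. In controls 4 and 6 the copies were listed at nearly equal levels, 279 and 276 TPM and 98.5 and 98.4 TPM. By the assemblies, Tnf was highest in controls 4 and 6, and the part of the 2 gene copies in the low counts was not tested.

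Across the 7945 genes with a mean of at least 10 CPM, the median ratio of highest to lowest library, with 0.5 CPM added to each, was 1.42. This ratio reached 4 for 275 genes and 10 for 103. In 229 of the 275, controls 4 and 6 were the 2 highest libraries, and 59 of the 275 still had a ratio of 4 within controls 1, 3 and 5. Counted by pairs, 3 genes differed 4-fold between controls 4 and 6, 11 between controls 1 and 3, and 235 between controls 3 and 6. Il1a had the largest ratio at 143, followed by Nr4a1, an immediate early nuclear receptor, at 112, Il1b at 111 and Cd274, which encodes the checkpoint ligand PD-L1, at 111. Nr4a1 gave 53.7, 20.6, 1318, 131 and 2370 CPM in controls 1, 3, 4, 5 and 6, and Cd274 gave 4.48, 8.44, 358, 37.0 and 550 CPM. Control 5 lay between controls 4 and 6 and the other libraries for these genes.

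Abundant genes were among the wide-ranging ones. Cd83, a surface glycoprotein of activated antigen-presenting cells, was the ninth gene by mean CPM with 1075, 982, 11202, 1777 and 18366 in controls 1, 3, 4, 5 and 6, and its mean of 6680 CPM was 1278 without controls 4 and 6. The adhesion molecule Icam1 gave 183, 154, 3013, 521 and 5293 CPM, and Olr1, a receptor for oxidised lipoprotein, gave 110, 99.2, 2411, 211 and 5228 CPM. The NF-kappaB regulators Nfkbiz and Nfkbid had the same order at the top. Nfkbiz gave 142, 59.6, 1818, 380 and 2937 CPM and Nfkbid 10.6, 5.51, 376, 56.7 and 533 CPM.

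**Figure D3:**
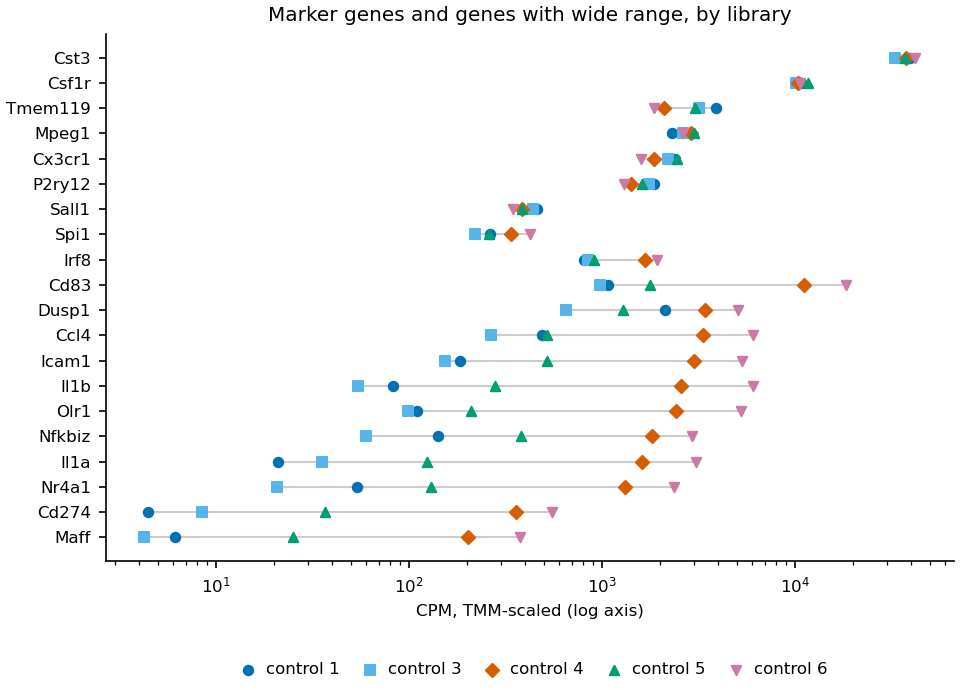
TMM-scaled CPM (log axis) of marker genes and of genes with a wide range, 1 point per control library, with a grey line from the lowest to the highest. Cst3 and Csf1r span less than 1.28-fold, whereas Il1b is at 2571 and 6102 CPM in controls 4 and 6 and at 54.4 to 279 CPM in the other 3 libraries.

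Genes known to be induced while cells are dissociated and sorted moved with this difference. The list took 1.44%, 0.753%, 4.06%, 1.35% and 5.04% of the counts in controls 1, 3, 4, 5 and 6, and 1.18% on average without controls 4 and 6. Of its 36 detected members 31 had a ratio of highest to lowest library of at least 4, which is 86.1%, beside 3.21% of all detected genes. Dusp1, a phosphatase of MAP kinases, gave 2131, 653, 3412, 1294 and 5081 CPM, Zfp36, which destabilises cytokine messages, 1658, 753, 2860, 1175 and 3840, and the AP-1 subunit Junb 1287, 640, 2340, 840 and 3146. Egr2, an immediate early zinc finger factor, gave 102, 41.0, 1165, 220 and 1774 CPM and Maff, a small Maf factor, 6.13, 4.26, 202, 25.1 and 377 CPM. Control 3 was the lowest library for each of these 5 genes. Cxcl2, Ccl3 and Ccl4 stand in this list and in the cytokine list, so the 2 shares are not separate measurements. The part of the isolation procedure in the cytokine levels was not tested.

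The mean spread of a gene was measured as the biological coefficient of variation, which removes counting error. Its common value over 10532 genes was 0.260, and it was 0.175 over controls 1, 3 and 5. Of 3623 genes with a mean of at least 50 CPM, 139 were above 0.5 and 18 above 1. After Il1a at 1.28 and Il1b at 1.23 came Cd274 at 1.22, Nr4a1 at 1.196, Maff at 1.18 and Arl5c, a small GTPase of the ARF family, at 1.17. The smallest values, from 0.148 to 0.150, belonged to genes at 51.9 to 71.4 CPM such as Tmem206, Nhlrc2, Qdpr, Dlst and Rbm42. The estimate is moderated toward a trend that is lower at low counts, so these values do not rank genes of different abundance. Rbm42, an RNA-binding protein, gave 73.3, 71.9, 69.5, 70.6 and 71.5 CPM in controls 1, 3, 4, 5 and 6. Among abundant genes Timp2, at 795 to 842 CPM, and Itgb1, the common integrin beta subunit, at 841 to 909 CPM, differed by less than 1.09-fold.

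**Figure D4:**
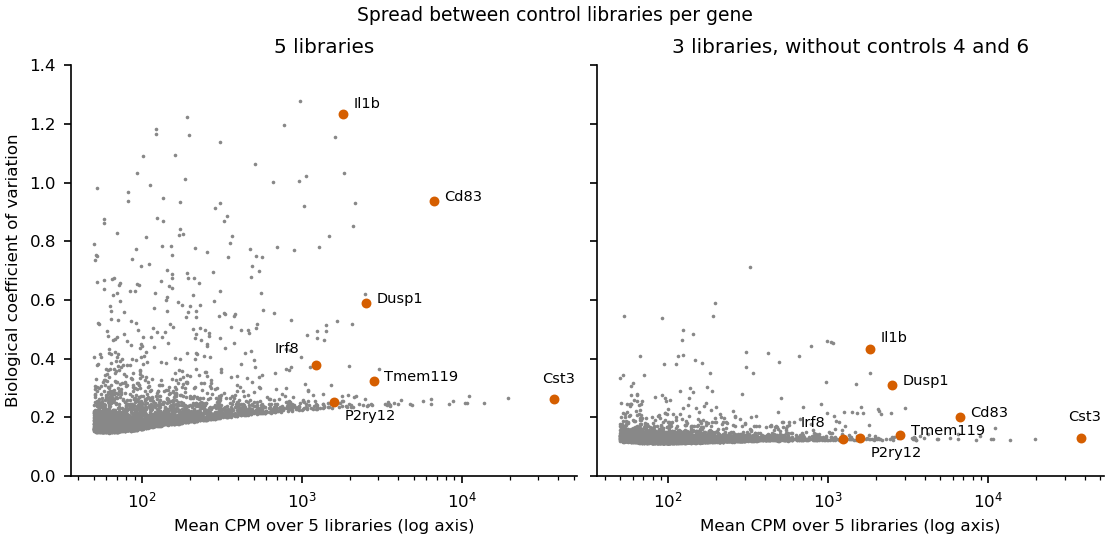
Biological coefficient of variation per gene (vertical axis) against mean CPM (log axis) for genes with a mean of at least 50 CPM, with 5 libraries on the left and without controls 4 and 6 on the right. Il1b moves from 1.23 to 0.434 and Cd83 from 0.937 to 0.202.

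The promoters of genes at either end were read from RefSeq on build GRCr8, as windows of 250 bases before to 50 after the start, of which the 250 before it are printed for 4 genes. They show a steady identity gene, C1qb, beside Il1a, Il1b and Nfkbia, the NF-kappaB inhibitor of the isolation list. The capitals mark matches, on either strand, to GAGGAA (the core bound by PU.1 and other ETS factors), TGANTCA (AP-1), CACGTG (E-box of TFEB and MITF) and TATAAA (the core box near many starts), to the kappaB site (GGGA, then 2 of any base, then TTCC) and to the serum response element (CC, any base, TAT, 2 of any base, GG).
C1qb: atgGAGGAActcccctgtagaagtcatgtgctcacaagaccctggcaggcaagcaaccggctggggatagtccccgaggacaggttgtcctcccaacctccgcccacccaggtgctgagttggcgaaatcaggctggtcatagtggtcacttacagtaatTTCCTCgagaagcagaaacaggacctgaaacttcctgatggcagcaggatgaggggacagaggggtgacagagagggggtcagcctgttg
Il1a: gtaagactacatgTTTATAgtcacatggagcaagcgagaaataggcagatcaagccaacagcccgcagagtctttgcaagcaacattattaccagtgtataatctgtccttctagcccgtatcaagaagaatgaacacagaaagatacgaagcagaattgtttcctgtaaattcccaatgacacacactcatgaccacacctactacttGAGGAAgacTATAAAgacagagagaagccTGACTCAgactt
Il1b: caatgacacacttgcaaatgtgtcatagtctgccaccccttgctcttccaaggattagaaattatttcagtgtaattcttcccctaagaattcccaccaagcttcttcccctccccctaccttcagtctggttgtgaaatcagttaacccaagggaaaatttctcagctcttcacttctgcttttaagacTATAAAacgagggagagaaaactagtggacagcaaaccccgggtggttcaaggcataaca
Nfkbia: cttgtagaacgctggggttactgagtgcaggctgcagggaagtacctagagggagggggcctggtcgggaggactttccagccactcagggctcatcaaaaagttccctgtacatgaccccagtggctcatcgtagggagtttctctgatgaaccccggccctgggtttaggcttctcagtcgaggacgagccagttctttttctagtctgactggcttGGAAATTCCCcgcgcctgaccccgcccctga
The C1qb stretch is chr5:154407828-154408077 on the minus strand. The Il1a stretch is chr3:136990018-136990267 on the minus strand. The Il1b stretch is chr3:137036582-137036831 on the minus strand. The Nfkbia stretch is chr6:78597073-78597322 on the minus strand.

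The C1qb window held GAGGAA at 247 to 242 and at 90 to 85 bases before the start. In Il1a the matches nearest the start were GAGGAA at 41 to 36, TATAAA at 32 to 27 and TGANTCA at 12 to 6 bases before it, and in Il1b TATAAA lay 60 to 55 bases before the start. Nfkbia held a kappaB site at 31 to 22 bases before the start. Over whole windows of 300 bases, GAGGAA was present in 12 of 24 identity genes with a promoter (50%) and in 9 of 33 isolation genes (27.3%). It was present in 49 of 202 genes with a 4-fold range (24.3%), in 26.5% of promoters of detected genes and in 27.5% of all 27457 genes. The kappaB site was present in none of the 24, in 11 of the 202 (5.45%) and in 3 of 33 isolation genes (9.09%). Its share was 1.47% in promoters of detected genes and 1.29% of all. CACGTG was present in none of the 24, in 20 of the 202 (9.90%) and in 7 of 33 isolation genes (21.2%). Its share was 9.75% in detected genes and 6.65% of all. TATAAA was present in 3 of the 24 (12.5%), in 34 of the 202 (16.8%) and in 5 of 33 isolation genes (15.2%). Its share was 6.25% in detected genes and 14.3% of all. TGANTCA was present in 2 of the 24, in 24 of the 202 (11.9%), in 2 of 33 isolation genes (6.06%), in 4.64% of promoters of detected genes and in 7.33% of all. The serum response element was present in 3 of 33 isolation genes (Egr1, Egr2 and Dusp5) and in 1.25% of all. These are letter matches and not measured binding, and GAGGAA read on the other strand can share bases with the end of a kappaB site.

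Interferon response genes followed another library. Their share was 0.182%, 0.285%, 0.218%, 0.156% and 0.240% of the counts in controls 1, 3, 4, 5 and 6, and 9 of the 27 detected members were at least 2-fold above the median of the other 4 libraries in control 3, beside 77 of all 10519 detected genes. In control 4 it was 4 members that lay 2-fold above, beside 323 of all detected genes. Members 2-fold below numbered 7 in control 5, beside 196 of all, and 4 in control 1, beside 266 of all. Mx2, a GTPase induced by type I interferon, gave 101, 388, 84.3, 62.3 and 76.9 CPM and was highest in control 3. Gbp2, a guanylate-binding protein also induced by interferon gamma, did not follow it, with 83.8, 102, 558, 101 and 991 CPM.

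Control 3 also had the highest summed share for genes of disease-associated microglia, a state described around plaques and dying neurons. It was 3.11%, 3.81%, 2.85%, 2.95% and 2.60% of the counts in controls 1, 3, 4, 5 and 6. Of 26 detected members 3 lay at least 2-fold above the median of the other 4 libraries in control 3, beside 77 of all 10519. In control 4 it was also 3, beside 323 of all, and in control 6 it was 2, beside 490 of all. Apoe held 36.3% of this list. Gpnmb, a glycoprotein of lipid-laden macrophages singled out after its values were seen, gave 97.7, 1094, 286, 75.3 and 74.8 CPM. Markers of border macrophages, which line vessels and meninges, had their highest summed share in control 3, at 0.0978% of the counts against 0.0423% to 0.0687% in the others. Of their 14 listed genes with a row, 11 were detected in every library, among them Lyve1 with 177, 350, 134, 177 and 155 CPM and Mrc1, the mannose receptor, with 31.6, 99.7, 47.1, 51.9 and 62.1 CPM, whereas Cd209a and Cd209b had 0 counts. Their part in the values of control 3 was not tested.

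Genes of antigen presentation through class II were present at moderate levels. Cd74, the invariant chain, gave 994, 502, 745, 906 and 1781 CPM in controls 1, 3, 4, 5 and 6, highest in control 6 and lowest in control 3, and stood at 1962 ± 757 TPM. B2m, the light chain of class I molecules, stood at 1162 ± 137 TPM. The list took 0.344% ± 0.0729 of the counts, and 12 of its 23 detected members had a ratio of at least 2 between libraries, 52.2% beside 19.4% of all detected genes.

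Markers of other cells that the sorted fraction could hold were low but not at 0. Photoreceptor genes took 0.101%, 0.0454%, 0.0809%, 0.171% and 0.124% of the counts in controls 1, 3, 4, 5 and 6. The share was lowest in control 3 and highest in control 5. Rod genes had the same extremes, Gnat1, rod transducin, with 54.0 to 267 CPM and Sag, rod arrestin, with 19.3 to 106 CPM, and 12 of 17 detected members had a ratio of at least 4, beside 3.21% of all detected genes. Müller glia and astrocyte genes took 0.256% ± 0.0176, of which 45.7% was Glul, glutamine synthetase. Of the 15 detected members 10 had a ratio of at least 2, which is 66.7% beside 19.4% of all detected genes, and 6 were at least 2-fold below the median of the others in control 5, beside 196 of all 10519. Genes of inner retinal neurons took 0.0160% ± 0.00466. RNA from attached or broken retinal cells and transcription in the sorted cells cannot be told apart in bulk RNA, nor can fewer cells of a type and less RNA per cell.

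Vascular genes took 0.0576% ± 0.0149 of the counts, of which 47.7% was Tie1, an endothelial receptor. Of the 8 members detected in every library 1 had a ratio of at least 4, which is 12.5% beside 3.21% of all detected genes. A single gene is too few to describe the list. The endothelial tight junction gene Cldn5, below 1 CPM in controls 5 and 6, gave 55.7, 26.5, 1.86, 0.207 and 0.123 CPM in controls 1, 3, 4, 5 and 6 and was the highest in control 1. Monocyte and neutrophil genes took 0.231% ± 0.0248, of which 75.4% was Lyz2, a lysozyme that macrophages also make, at 1485 to 2059 CPM. Of the 22 listed genes with a row, 8 were detected in every library, and 3, Lyz2 among them, had a mean of at least 100 CPM. Ccr2, Lcn2, Np4 and Mpo had 0 counts, which with 3 counts as the limit of a 0 allows up to 0.0599 CPM in the pooled libraries by counting error alone. S100a8 summed to 13 counts over the 5 libraries and S100a9 to 124. Lymphocyte, NK and mast cell markers had no member at 1 CPM in all libraries, and 8 of the 20 in the table had 0 counts, Cd3d, Cd3g and Ms4a1 among them. Best1 carried 98.5% of the pigment epithelium and lens share at 1238 to 1741 CPM, while the pigment genes Tyr and Mlana had 0 counts, and in RefSeq it neighbours the ferritin gene Fth1. Without the strand and overlap settings of the counting, reads of neighbouring genes cannot be told apart.

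**Figure D5:**
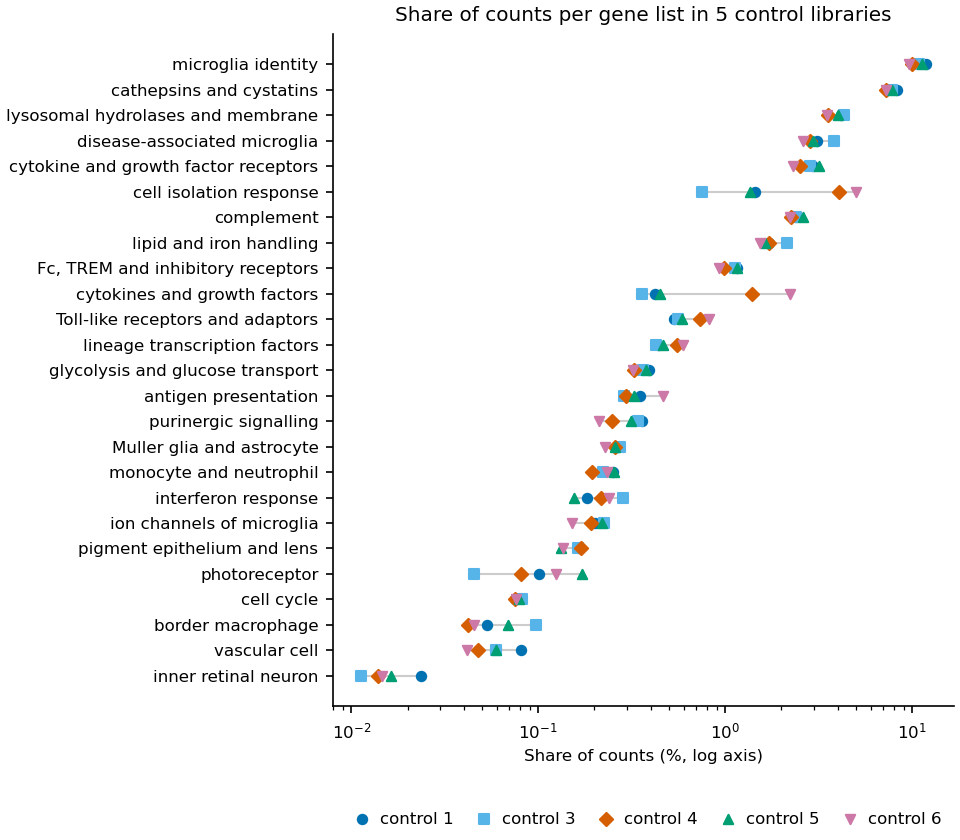
Share of counts (percent, log axis) per gene list, 1 point per control library, for lists above 0.005% in every library. Identity, lysosomal and complement lists differ by no more than 1.23-fold between libraries and are lowest in controls 4 and 6. Controls 4 and 6 are the highest for the isolation and cytokine lists, and control 3 is the lowest for photoreceptor genes. Shares are of all counts of a library, without TMM scaling.

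Cell cycle genes were low. The cell cycle list took 0.0775% ± 0.00295 of the counts with 28 of 31 genes detected in all libraries, and Cdk1, the mitotic kinase, stood at 3.21 to 7.18 CPM. Pcna, a clamp of DNA replication and repair, held 21.6% of the list with 96.9, 115, 233, 123 and 295 CPM in controls 1, 3, 4, 5 and 6.

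A count of 0 in the table did not always mean that no transcript was seen. Genes that all cells use were near 0, among them Gapdh at 1.37 to 7.35 CPM and Hspa8 at 0.183 to 0.739 CPM, and ribosomal protein genes together took 0.139% of the counts. Of 277 gene symbols with reference transcripts at 10 TPM or more in all 5 control assemblies, 25 had a mean below 1 CPM in the count table and 10 of these had no count. Hspa8, a heat shock protein of the cytosol, was listed at 50.4 to 165 TPM in the assemblies. Gapdh and Hspa8 were singled out after their values were seen, and how the reads of such genes were counted is not given in the sources used here.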

How the data were processed

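RNA of sorted CD11b-positive retinal cells was sequenced in 9 libraries, of which the 5 controls were used. The authors deposited raw counts per gene symbol, without stating the counting program or strand setting in the sources used here, and all 28343 rows name a gene. They also deposited transcript assemblies made with StringTie 1.2.4 on Rnor_6.0, per the file headers, whose TPM values were read only for genes nearly missing from the counts. Their columns of start and end positions gave the spans and transcript lengths. The submitters' processing notes also name bcl2fastq 2.18.0.12, TopHat2 2.0.14 and edgeR. CPM was scaled with TMM factors (edgeR 4.0.16 in R 4.3.3), TPM was computed with the longest reference transcript of a symbol in the 9 assemblies, over genes with a length, and the biological coefficient of variation came from edgeR's dispersion estimate without covariates after filterByExpr (minimum count 10, minimum total 15). It was tested on simulated counts. A gene was called detected at 1 CPM or more in every library before TMM scaling.

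With 1 group of 5 libraries no test between groups was made, and levels were screened for 1 outlying library with Dixon's ratio (critical value 0.71). Pairs of libraries differed by a chi-square of at least 14.2 per degree of freedom, so none was taken for a repeat of another, which does not show that they came from different animals. Libraries hold 9156591 to 11332823 counts, and their SD includes counting error, which for a gene at 0 counts in all 5 leaves up to 0.0599 CPM (3 counts). Counts are reads without molecular identifiers, so limits cover counting error only. Named genes were the 25 highest by TPM and the 10 highest by CPM, up to 5 leading members of each of 27 lists, up to 3 of each of 42 families, the 20 largest and 15 smallest coefficients of variation above 50 CPM, and 13 fixed genes. Some of these are not reported here. The members and lists were chosen with earlier results of these data known. Alternatives were each library left out, DESeq2 1.42.0 size factors or none, other filters, TPM in place of counts, and median lengths. Promoters came from RefSeq (GRCr8), of which the first per symbol was used.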

Additional observations from a re-analysis of the deposited data

Results flagged for a closer look

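A level was picked out where the gap from 1 library to the nearest other, divided by the range of the 5, exceeded Dixon's critical value of 0.71, whatever the fold. In 6 genes control 3 was the highest by this measure: Apoe at 14360 CPM against a median of 10356 over the 5 libraries, Ctsb at 10408 against 8612, Gpnmb at 1094 against 97.7, Lyve1 at 350 against 177, Mx2 at 388 against 84.3, and Tnf in the count table at 3.43 against 0.207 CPM. The Tnf value rests on 41 counts in control 3, and in the assemblies the same library was the lowest, at 19.99 TPM. Control 6 stood alone for Lyn, at 1335 CPM against a median of 1066. Among 154 gene levels and list shares examined, 7 had such a library. The genes were partly chosen from these same values, so the 7 cannot be set against the 1 in 20 that chance alone would give.

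The deposited transcript assemblies held signal for genes that the count table nearly lacks. On average over the 5 control assemblies, Tnf was listed at 182 TPM, Hspa8 at 95.7 TPM and Hnrnpab, an RNA-binding protein, at 48.1 TPM. In the count table Hnrnpab had 0 counts in every control library.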

How the results depend on the processing

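Leaving out 1 library at a time left 10569 to 10651 genes detected, 31.9% to 32.7% of counts on the 100 most abundant genes, a common coefficient of variation of 0.238 to 0.277 and 188 to 267 genes with a 4-fold range. Without controls 4 and 6, chosen after seeing the data, 56 genes had a 4-fold range instead of 275, and with a mean of 1 CPM in place of 10 it was 641. No paired analysis was possible because only the control group is described. In place of counts, TPM moved the share of the 100 most abundant genes to 49.5%, and the lists to 18.1% (microglia identity), 0.281% (lineage factors), 15.2% (cathepsins and cystatins), 2.82% (lysosome), 2.92% (complement), 0.569% (antigen presentation), 1.58% (Fc and TREM receptors), 0.287% (Toll-like receptors), 0.459% (purinergic signalling), 2.30% (cytokines), 2.78% (lipid and iron), 0.247% (glycolysis), 4.90% (disease-associated), 0.0478% (cell cycle), 0.177% (photoreceptor), 0.0106% (inner retinal neuron), 0.177% (Müller glia), 0.0272% (vascular), 0.00299% (pigment epithelium and lens) and 0.398% (monocyte and neutrophil). TPM leaves out genes without a length and divides by length, and these were not separated. The first member by mean TPM was the same in 36 of 37 families with median lengths and, by CPM, in 26 of 37. DESeq2 size factors or none kept the mean CPM of all 127 genes of the text within 1 SD, and without controls 4 and 6 31 of them moved by over 1.5-fold, as did 19 without control 6 alone, 3 without control 1 and 3 without control 3. Depth limits genes under about 1 CPM, which rest on about 10 counts a library.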

Other observations

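The list of receptors for cytokines and growth factors took 2.75% ± 0.346 of the counts (SD, n = 5), of which Csf1r made up 39.0%. This share includes Cd81, a tetraspanin that is not itself such a receptor. Cd81 came after Csf1r in the list with 6320 ± 883 TPM, and Ifngr1, the binding chain of the interferon gamma receptor, followed Cx3cr1 with 2865 ± 779 TPM. Csf3r, the receptor of the granulocyte growth factor, gave 358, 303, 290, 323 and 310.5 CPM in controls 1, 3, 4, 5 and 6. Purinergic signalling genes took 0.294% ± 0.0634, and 14 of 25 were detected in all libraries. The ATP-gated channel P2rx4 stood at 207 ± 78.6 TPM and P2rx7 at 40.1 ± 9.01 TPM. Nt5e, the enzyme that makes adenosine at the cell surface, stood at 167 ± 13.8 TPM.

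Ion channels of microglia took 0.198% ± 0.0294 of the counts. Trpm2, a channel opened by oxidative stress, gave 427, 549, 493, 581 and 225 CPM in controls 1, 3, 4, 5 and 6 and was lowest in control 6. The potassium channel Kcnk13, known as THIK-1, was steadier at 123 to 140 CPM and 161 ± 24.9 TPM, and the proton channel Hvcn1 stood at 258 ± 37.2 TPM. Genes of glycolysis and sugar transport took 0.356% ± 0.0311, with Hk2, a hexokinase, at 238 to 321 CPM. Gapdh, an enzyme of glycolysis, was near 0 in the count table, so this share need not reflect the level of the pathway. Genes encoded on the mitochondrial chromosome took 1.05%, 1.35%, 0.786%, 0.707% and 0.607% of the counts, highest in control 3 and lowest in control 6. Erythrocyte and platelet markers had 1 gene detected in every library, the platelet glycoprotein Gp9, at 1.17 to 5.30 CPM.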
